A study of Homo sapiens with 12 samples.

Results

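The report concerns the difference between the responses of 2 human cell lines to low-density lipoprotein (LDL), gene by gene: the change with LDL in THP-1 minus the change with LDL in EA.hy926, on the log2 scale. A gene was compared where its mean reached 10 normalised counts in a group of each line and no group was at 0 throughout, which held for 12403 of the 20117 genes in the table. A normalised count is the number of reads of a gene divided by a factor for the depth of its library. Just inside the limit lay CORO1A at 10.01 in its lower line, and just outside lay an unnamed gene at 9.99. Another 131 genes reached the mean but had a group at 0, and 3633 genes reached it in THP-1 alone and 1668 in EA.hy926 alone.

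THP-1 is a monocytic leukaemia line, induced here with the phorbol ester PMA to become macrophages and kept in RPMI-1640. EA.hy926 is a hybrid line made by fusing umbilical vein endothelial cells with A549 lung carcinoma cells, and was kept in DMEM. The 4 groups were THP-1 with LDL, THP-1 control, EA.hy926 with LDL and EA.hy926 control, each with 3 libraries labelled as biological replicates. LDL was native, came from donors with cardiovascular disease and was given at 100 µg/mL for 24 h, and both lines were serum-free in both arms. Line and medium differed together and cannot be told apart, and each line is a single line. The labels do not say how the replicates were kept apart, so the p-values rest on a spread between libraries that may be technical.

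Cells that take up LDL release its cholesterol in lysosomes. Sterol in the endoplasmic reticulum then holds back SREBP2, the factor that drives the genes of cholesterol synthesis and uptake, while oxysterols activate LXR, which drives efflux genes such as ABCA1. NF-kB drives chemokine and adhesion genes in both macrophages and endothelium, interferon induces antiviral genes, ATF4 answers amino acid and other stress, and NRF2 drives antioxidant genes such as HMOX1 and NQO1. These pathways, with the genes of growth and the cytoskeleton, were read in both lines side by side.

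Macrophage markers were at a mean of 10 for 20 of 23 genes in THP-1 LDL libraries and 21 of 23 in THP-1 control libraries, against 5 of 23 in each EA.hy926 group. Endothelial markers were at that level for 16 of 19 genes in EA.hy926 LDL and 17 of 19 in EA.hy926 control libraries, against 8 and 11 in THP-1 LDL and control. Depth ran from 4.32 to 11.0 M reads per library. RN7SL1, an abundant non-coding RNA, took 2.15% to 3.08% of THP-1 LDL and 1.74% to 2.07% of THP-1 control reads. It took 9.52% to 14.4% of EA.hy926 LDL and 8.9% to 12.7% of EA.hy926 control reads, with the highest shares in LDL replicate 3 and control replicate 1. The summed level of the lung epithelial markers was 13000 to 13200 in EA.hy926 LDL and 10200 to 11100 in EA.hy926 control libraries, and their part in the EA.hy926 results was not tested.

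The promoters of 3 gene groups that the results turn on are shown first, since most tested members of each moved in 1 direction in THP-1. Each stretch holds 80 bases that end at or before the start site, read 5′ to 3′ on the gene's strand from RefSeq (GRCh38.p14), with the searched motif in capitals. The first 4 belong to NF-kB targets that rose in both lines, and the capitals mark the kappaB core GGGNNTTTC or its reverse complement. They lie at chr4:73869278-73869357 (plus strand) for CXCL1, chr4:74099230-74099309 (minus) for CXCL2, chr6:137867169-137867248 (plus) for TNFAIP3 and chr14:35404756-35404835 (minus) for NFKBIA.
CXCL1: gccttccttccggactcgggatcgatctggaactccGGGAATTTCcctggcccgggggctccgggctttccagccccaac
CXCL2: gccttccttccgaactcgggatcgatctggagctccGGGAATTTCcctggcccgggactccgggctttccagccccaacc
TNFAIP3: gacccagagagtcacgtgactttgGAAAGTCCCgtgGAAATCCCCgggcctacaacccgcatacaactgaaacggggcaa
NFKBIA: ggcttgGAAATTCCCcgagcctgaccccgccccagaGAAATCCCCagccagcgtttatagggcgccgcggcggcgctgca

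The next 3 belong to IFIT1, IFI27 and IFI44, interferon-induced genes that each rose in THP-1 and were not called in EA.hy926. Capitals mark the core TTTCNNTTT of the interferon response element or its reverse complement. They lie at chr10:89392484-89392563 (plus) for IFIT1, chr14:94110606-94110685 (plus) for IFI27 and chr1:78649709-78649788 (plus) for IFI44.
IFIT1: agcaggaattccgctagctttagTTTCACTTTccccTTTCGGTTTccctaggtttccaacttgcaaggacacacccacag
IFI27: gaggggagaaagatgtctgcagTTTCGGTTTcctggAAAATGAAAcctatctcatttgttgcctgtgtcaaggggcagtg
IFI44: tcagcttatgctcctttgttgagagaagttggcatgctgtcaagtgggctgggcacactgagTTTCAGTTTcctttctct

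The last 3 belong to H2AC13, H3C2 and H3C7, histone genes that each fell in THP-1 and rose in EA.hy926. Capitals mark the CCAAT box or its reverse complement. They lie at chr6:27808067-27808146 (plus) for H2AC13, chr6:26032112-26032191 (minus) for H3C2 and chr6:26250647-26250726 (minus) for H3C7.
H2AC13: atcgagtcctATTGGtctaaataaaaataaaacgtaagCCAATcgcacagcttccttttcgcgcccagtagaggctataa
H3C2: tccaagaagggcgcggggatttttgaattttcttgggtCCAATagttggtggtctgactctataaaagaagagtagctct
H3C7: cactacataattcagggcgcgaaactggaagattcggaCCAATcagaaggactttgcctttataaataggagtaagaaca

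Counted on both strands over windows of 300 bases, from 250 before to 50 after the start, the kappaB core stood in 9 of 21 windows of the NF-kB list (42.9%) and in 447 of 9315 windows of tested genes (4.8%). Within that list it stood in 5 of 11 windows of the genes called in EA.hy926 and in 4 of 10 of those not called there. The interferon core stood in 18 of 25 windows of the interferon list (72%), against 646 of 9315 (6.94%). The CCAAT box stood in 41 of 48 histone windows (85.4%), against 3478 of 9315 (37.3%), and also in 26 of 32 windows of S and M phase genes. The core TGACNNNGC of the antioxidant response element stood in 5 of 14 windows of the NRF2 list, against 1453 of 9315 (15.6%). Windows were found for 9315 of the tested genes. A match describes letters and does not show binding.

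The LDL response differed between the lines for 5756 of the 12403 genes (46.4%; limma with Benjamini-Hochberg adjustment, adjusted p below 0.05). The difference was positive, that is higher in THP-1, for 3045 genes (24.6%) and negative for 2711 (21.9%). In THP-1, whatever EA.hy926 did, 3770 genes rose with LDL (30.4%) and 3479 fell (28.0%). In EA.hy926, whatever THP-1 did, 102 rose (0.822%) and 42 fell (0.339%). The median gene changed by 0.03 in THP-1 and by 0 in EA.hy926, and the middle 80% of changes ran from -0.97 to 1.18 in THP-1 and from -0.31 to 0.31 in EA.hy926. The median standard error of a change was 0.15 in each line, which are equal because the fit shares 1 spread between them. The SD of a library's deviations from its group mean was 0.139 to 0.15 in THP-1 control and 0.198 to 0.242 in THP-1 LDL libraries. It was 0.204 to 0.259 in EA.hy926 control and 0.209 to 0.259 in EA.hy926 LDL libraries, so the shared value may understate the error in EA.hy926. The count of EA.hy926 calls was 87, 70 and 411 without EA.hy926 LDL replicate 1, 2 and 3, and 30 of the 144 genes were called in all 26 alternative settings. The median difference was 0.04, and which sign was more frequent depended on the scaling: there were 2709 positive and 3034 negative differences with TMM, 2778 and 2951 with median-of-ratios scaling, and 2585 and 3548 with quantile normalization, at medians of -0.03, -0.02 and -0.10.

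The 2 changes of a gene were nearly unrelated across genes, which are not independent replicates, with a Pearson r of 0.10 and a Spearman rho of 0.03 over 12403 genes. Calls in EA.hy926 were more frequent among genes with large THP-1 changes. Of the 95 genes that rose by at least 4 log2 units in THP-1, 11 rose in EA.hy926 (11.6%), as did 15 of the 392 that rose by 2 to 4 (3.83%), 15 of 1102 that rose by 1 to 2 (1.36%) and 9 of 2181 that rose by less (0.413%). Of the 186 genes that fell by at least 2 in THP-1, 11 rose in EA.hy926 (5.91%) and 4 fell (2.15%).

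**Figure D1:**
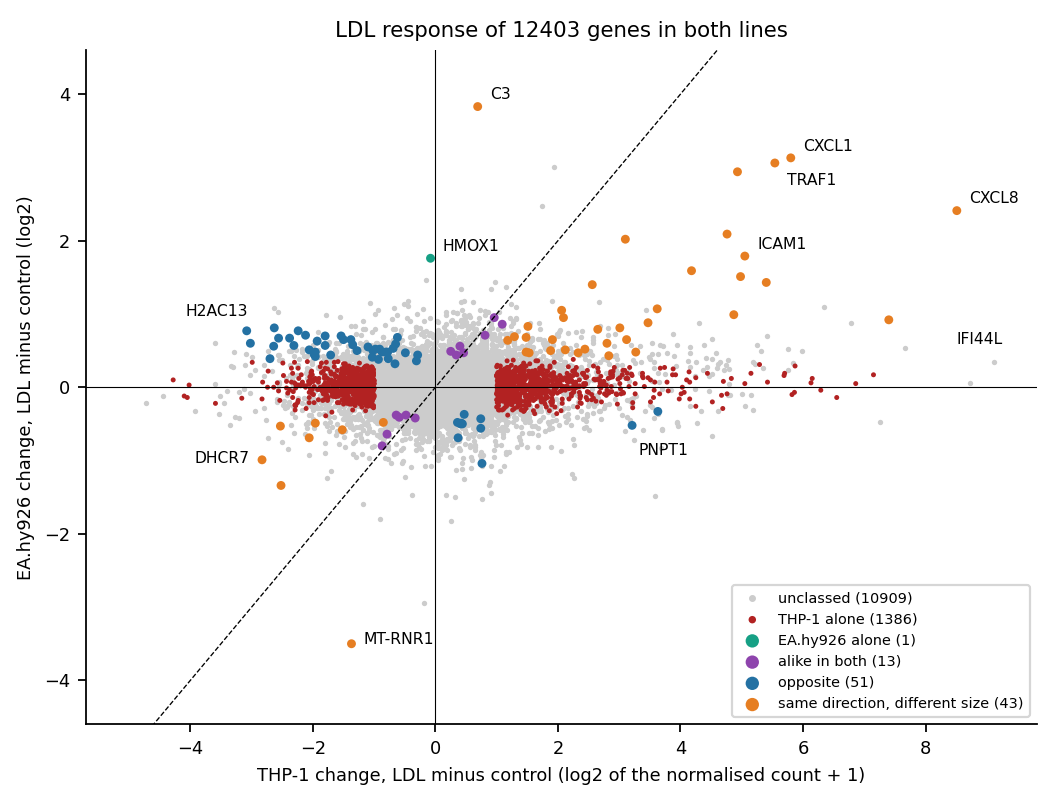
Change with LDL in THP-1 (horizontal axis) and EA.hy926 (vertical axis), in log2 of the normalised count plus 1, for the 12403 genes compared; colours mark the classes and the dashed line marks equal changes. The 1386 genes that responded in THP-1 alone lie along the horizontal axis, and the 51 opposite genes lie mainly at the upper left.

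Genes were put in classes from these calls and their 95% intervals. A gene responded in 1 line alone if it was called there with a change of at least 1 log2 unit, its difference was called, and the interval of its change in the other line lay within 1.5-fold either way. By this rule 758 genes rose in THP-1 alone (6.11%) and 628 fell there alone (5.06%), while 1 gene rose in EA.hy926 alone (0.00806%) and 0 fell. The THP-1 classes include 2 genes also called in EA.hy926 in the same direction, since their EA.hy926 interval lay within 1.5-fold. Called in both lines in 1 direction, with the interval of the difference within 1.5-fold, were 7 rises (0.0564%) and 6 falls (0.0484%). Opposite calls were made for 11 genes that rose in THP-1 and fell in EA.hy926 (0.0887%) and for 40 that fell in THP-1 and rose in EA.hy926 (0.323%). Another 41 genes moved in 1 direction with a larger change in THP-1 (0.331%) and 2 with a larger change in EA.hy926 (0.0161%). The small classes moved with single EA.hy926 libraries: without LDL replicate 3 there were 45 alike, 71 and 68 opposite and 79 same-direction genes, and without LDL replicate 2 there were 4, 6, 16 and 26. Without LDL replicate 1 or control replicate 3 the opposite class led by EA.hy926 rises held 17 or 21, and without control replicate 3 the other opposite class held 2. The other 10909 genes were in no class. Of these, 4815 were called nowhere, 2315 of them with both intervals within 1.5-fold, and 1803 were called in THP-1 but not for the difference. Others were called in THP-1 and for the difference. Among them, 2522 had a THP-1 change under 1 log2 unit with the EA.hy926 interval within 1.5-fold, and for 1419 that interval reached past 1.5-fold. The rest were 34 called in EA.hy926 and 316 called for the difference alone.

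The NF-kB targets and cytokines were the list with the most genes that rose in both lines. All 27 tested members rose in THP-1 and 12 rose in EA.hy926, the difference was positive for all 27, and the medians were 4.78 in THP-1, 0.61 in EA.hy926 and 3.04 for the difference. Over all genes 30.4% rose in THP-1, 0.822% rose in EA.hy926 and 24.6% of differences were positive. CXCL8, CXCL1 and CXCL2, chemokines that draw neutrophils, the adhesion molecule ICAM1 and the signalling adaptor TRAF1 were among the 12. TRAF1 had 4472, 4042 and 4409 normalised counts in THP-1 LDL libraries and 90.6, 103 and 81.8 in THP-1 control libraries, and 355, 367 and 328 in EA.hy926 LDL and 39.8, 42.8 and 40.6 in EA.hy926 control libraries. LDL and control libraries did not overlap in either line. Its change was 5.54 ± 0.11 in THP-1 and 3.06 ± 0.11 in EA.hy926 (log2, SE; limma adjusted p = 2.8e-17 and 5.6e-12), with a difference of 2.48 ± 0.16 (adjusted p = 4.7e-10).

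CXCL8 (chromosome 4, 73740569 to 73743716, GRCh38.p14) had 18390, 23380 and 17540 counts in THP-1 LDL and 57.5, 44.4 and 57.3 in THP-1 control libraries, and 189, 178 and 216 in EA.hy926 LDL and 49.99, 34.0 and 26.7 in EA.hy926 control libraries. The control levels of the lines were alike in size, and the LDL levels were apart by 2 orders of magnitude. Its difference was 6.10 ± 0.25 (adjusted p = 1.6e-12), from changes of 8.51 ± 0.18 in THP-1 and 2.41 ± 0.18 in EA.hy926. ICAM1 changed by 5.05 ± 0.11 and 1.79 ± 0.11, at 22150, 20410 and 19590 counts in THP-1 LDL against 607, 607 and 657 in THP-1 control, and 465, 418 and 442 in EA.hy926 LDL against 116, 115 and 154 in EA.hy926 control libraries. RELB, an NF-kB subunit, had the smallest called difference among these 12, at 1.08 ± 0.21 (adjusted p = 0.00044).

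Negative regulators of the pathway also rose in both lines. NFKBIA, which encodes the inhibitor that holds NF-kB in the cytoplasm, rose by 3.01 ± 0.12 in THP-1 and by 0.81 ± 0.12 in EA.hy926, and TNFAIP3, an enzyme that edits ubiquitin chains to end signalling, by 4.18 ± 0.20 and 1.59 ± 0.20. The superoxide dismutase SOD2 changed by 4.87 ± 0.08 and 0.99 ± 0.08. The 15 members not called in EA.hy926 had changes there of -0.12 to 1.10, and several of them were well expressed. IRAK2, a kinase downstream of Toll-like and IL-1 receptors, had 1806, 1868 and 1719 counts in THP-1 LDL against 36.6, 27.4 and 37.6 in THP-1 control libraries, and 3709, 3234 and 2940 in EA.hy926 LDL against 2527, 3080 and 3039 in EA.hy926 control libraries. The EA.hy926 groups overlapped, and the EA.hy926 change of 0.19 had an interval of -0.06 to 0.44. NFKB1 was at -0.02 in EA.hy926 and rose by 3.02 in THP-1. CCL2, a monocyte chemokine, was at 0.54 in EA.hy926 (adjusted p = 0.12) and rose by 7.66 in THP-1. CXCL1, CXCL2 and CXCL3 are close copies, and reads shared between them may be misassigned.

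**Figure D2:**
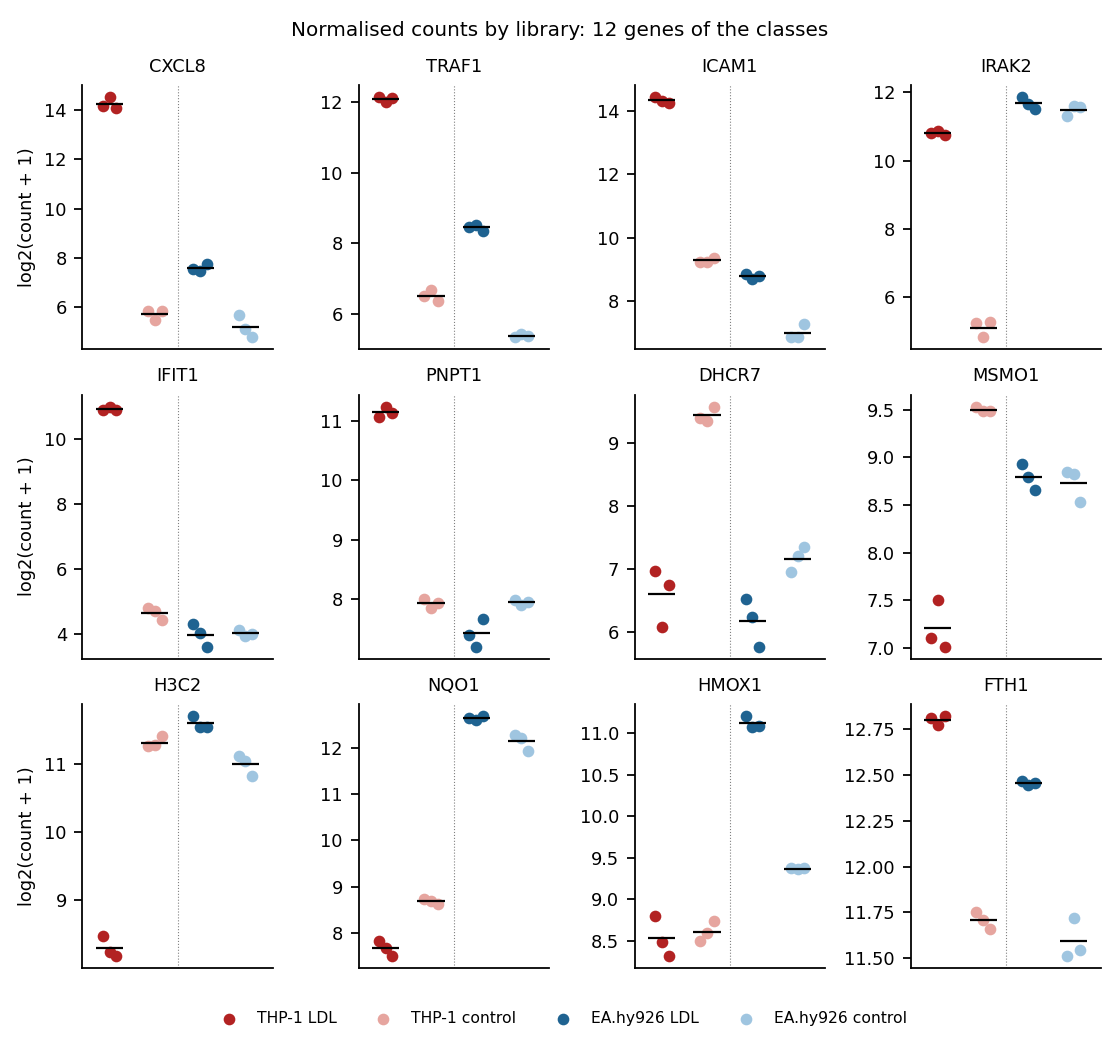
Normalised counts of 12 genes on a log2 scale (log2 of the count plus 1, axes not from 0), with 1 point per library and a bar at the mean of the 3 libraries; the dotted line parts THP-1 (left) from EA.hy926 (right), and LDL stands left of control. TRAF1 and CXCL8 rise in both lines, IFIT1 and IRAK2 in THP-1, HMOX1 in EA.hy926, and H3C2 and NQO1 move in opposite directions.

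The interferon-induced genes responded in THP-1. All 33 tested members rose there, with a median of 3.74, against 30.4% of all genes. In EA.hy926 0 rose and 1 was called lower, which put it among the opposite genes. Among all genes 0.822% rose and 0.339% fell in EA.hy926, so the small count there is not read as particular to the list. The EA.hy926 median was 0.05 and the changes there ran from -0.47 to 0.52. The difference was positive for all 33, and 23 met the interval rule for a response in THP-1 alone. Shares over all genes were 24.6% for a positive difference and 6.11% for a rise in THP-1 alone. IFIT1, an antiviral protein that binds foreign RNA, had 1919, 2045 and 1898 counts in THP-1 LDL and 27.0, 24.8 and 20.7 in THP-1 control libraries, against 18.5, 15.3 and 11.2 in EA.hy926 LDL and 16.3, 14.3 and 15.1 in EA.hy926 control libraries. THP-1 groups were far apart, and EA.hy926 groups overlapped. IFI27, OASL and IFI44L had differences of 6.80 ± 0.31, 6.03 ± 0.26 and 8.76 ± 0.32 (limma adjusted p = 4.7e-12, 2.6e-12 and 3.8e-13).

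PNPT1, a mitochondrial RNA exonuclease that interferon also induces, was called in both lines in opposite directions. It changed by 3.21 ± 0.11 in THP-1 and -0.52 ± 0.11 in EA.hy926 (adjusted p = 4e-14 and 0.028), at 2148, 2415 and 2245 counts in THP-1 LDL against 258, 232 and 244 in control, and 168, 147 and 204 in EA.hy926 LDL against 254, 239 and 247 in control libraries. LDL and control libraries did not overlap within either line, as the rule for naming genes of this class required. PNPT1 was not called in EA.hy926 in 9 of the 26 settings.

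Antigen presentation genes also rose in THP-1. All 21 tested members rose in THP-1 (median 1.53), 0 were called in EA.hy926 (median 0.10), and the difference was positive for 20. Over all genes 30.4% rose in THP-1 and 24.6% of differences were positive. As 0.822% of all genes rose and 0.339% fell in EA.hy926, the 0 called there is not read as particular to the list. HLA-DRA, a chain of the class II complex, had 757, 790 and 637 counts in THP-1 LDL against 6.97, 5.88 and 7.52 in THP-1 control libraries, and 139, 128 and 148 in EA.hy926 LDL against 195, 160 and 112 in EA.hy926 control libraries. Its difference was 6.69 ± 0.27 (adjusted p = 9.4e-13), and its EA.hy926 groups overlapped. TAP1, a subunit of the transporter that loads peptides onto class I molecules, had a difference of 3.19 ± 0.15. CD274, the checkpoint ligand PD-L1, had 1236, 1351 and 1218 counts in THP-1 LDL against 0.871, 3.92 and 1.88 in THP-1 control libraries, and 174, 166 and 232 in EA.hy926 LDL against 160, 211 and 175 in EA.hy926 control libraries. Its fitted difference was 8.67 ± 0.36, which depends on the added 1 at such low control values.

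Sterol genes fell mainly in THP-1. Of 20 tested enzymes of cholesterol synthesis 17 fell in THP-1 and 1 rose, 2 fell in EA.hy926, and the difference was negative for 17 and positive for 1; the medians were -1.21 in THP-1, -0.02 in EA.hy926 and -1.31 for the difference. Over all genes 28.0% fell and 30.4% rose in THP-1, and 0.339% fell in EA.hy926. Negative and positive differences made up 21.9% and 24.6% of all genes. DHCR7, which reduces 7-dehydrocholesterol to cholesterol, fell in both lines. It had 125, 67.0 and 106 counts in THP-1 LDL against 669, 646 and 759 in THP-1 control libraries, and 91.4, 74.5 and 53.7 in EA.hy926 LDL against 122, 147 and 161 in EA.hy926 control libraries. No groups overlapped within a line, and it fell by 2.83 ± 0.21 in THP-1 and by 0.99 ± 0.21 in EA.hy926, with a difference of -1.84 ± 0.30 (adjusted p = 5.7e-05). Its EA.hy926 fall was called in 19 of 26 settings, at -1.16 to -0.78, and not without EA.hy926 LDL replicate 2 or control replicate 2 or 3. MSMO1, a sterol demethylase, fell by 2.30 ± 0.13 in THP-1 and was at 0.06 ± 0.13 in EA.hy926, with an interval of -0.21 to 0.33.

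HMGCS1, which makes the HMG-CoA of the early pathway, had 431, 518 and 401 counts in THP-1 LDL against 1068, 1011 and 1005 in THP-1 control libraries, and 185, 180 and 186 in EA.hy926 LDL against 266, 180 and 227 in EA.hy926 control libraries. The THP-1 groups did not overlap. Its change of -0.27 ± 0.13 in EA.hy926 did not pass the test (adjusted p = 0.35). LSS, lanosterol synthase, was the enzyme that rose in THP-1, by 1.83 ± 0.13, and was at -0.34 ± 0.13 in EA.hy926 (adjusted p = 0.21). Of 16 tested genes of cholesterol uptake and SREBP control 8 fell and 4 rose in THP-1, against 28.0% and 30.4% of all genes. The difference was negative for 7 and positive for 3, against 21.9% and 24.6%. In EA.hy926 2 genes of the list fell, against 0.339% of all genes. One of these was SREBF2, which encodes SREBP2 itself, with 1431, 1239 and 1315 counts in THP-1 LDL against 2299, 2355 and 2541 in control, and 311, 269 and 318 in EA.hy926 LDL against 408, 443 and 401 in control libraries. It fell by 0.85 ± 0.09 and 0.48 ± 0.09, and its difference was -0.37 ± 0.13 (adjusted p = 0.027).

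Of 17 fatty acid synthesis and desaturation genes 10 fell and 3 rose in THP-1, against 28.0% and 30.4% of all genes. The difference was negative for 10 and positive for 4, against 21.9% and 24.6%. In EA.hy926 1 gene of the list fell, against 0.339% of all genes. That gene was SCD, which desaturates stearate, with 2170, 2311 and 2107 counts in THP-1 LDL against 9110, 8989 and 9308 in control, and 306, 317 and 346 in EA.hy926 LDL against 583, 557 and 436 in control libraries. It fell by 2.06 ± 0.10 and 0.69 ± 0.10, with a difference of -1.37 ± 0.14 (adjusted p = 2.9e-07). FADS2, another desaturase, fell by 3.59 ± 0.12 in THP-1 and was at -0.22 ± 0.12 in EA.hy926. FASN, fatty acid synthase, fell by 1.99 ± 0.12 in THP-1 and was at 0.10 ± 0.12 in EA.hy926.

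LXR targets were called in THP-1 and not in EA.hy926: 6 of 13 rose and 5 fell there, 0 were called in EA.hy926, and the difference was positive for 4 and negative for 4. Over all genes 30.4% rose and 28.0% fell in THP-1, and 24.6% and 21.9% of differences were positive and negative, so nothing is read from the counts of this list. ABCA1, the cholesterol exporter, had 20250, 20210 and 19420 counts in THP-1 LDL against 6531, 6402 and 6481 in THP-1 control libraries, and 311, 296 and 309 in EA.hy926 LDL against 297, 339 and 337 in EA.hy926 control libraries. Its EA.hy926 groups overlapped, the interval of its EA.hy926 change was -0.25 to 0.08, and its difference was 1.71 ± 0.11 (adjusted p = 5.6e-10). NR1H3, which encodes LXR alpha, had a difference of 2.37 ± 0.20, and ABCG1, a second exporter, one of 0.65 ± 0.19 (adjusted p = 0.0082), which was lost with quantile normalization.

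Stress genes of the ATF4 list rose in THP-1 for all 29 tested members (median 1.99) and in EA.hy926 for 2 (median 0.17). The difference was positive for 27. Among all genes 30.4% rose in THP-1, 0.822% rose in EA.hy926 and 24.6% of differences were positive. The 2 called in EA.hy926 were SESN2, a stress sensor that restrains mTORC1, and the transcription factor CEBPB, whose EA.hy926 rise was called in 18 of 26 settings. SESN2 changed by 2.83 ± 0.10 in THP-1 and 0.43 ± 0.10 in EA.hy926 (adjusted p = 6.4e-14 and 0.049), the second within the threshold in 11 of 26 settings. SLC7A11, the cystine importer, had 4863, 5529 and 4740 counts in THP-1 LDL against 325, 327 and 344 in THP-1 control libraries, and 6151, 5969 and 6319 in EA.hy926 LDL against 5191, 5138 and 6142 in EA.hy926 control libraries. The THP-1 LDL level came close to the EA.hy926 level, and its difference was 3.75 ± 0.13 (adjusted p = 9.1e-14).

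NRF2 targets differed from gene to gene. In THP-1 8 of 20 members rose and 6 fell, in EA.hy926 7 rose and 0 fell, and the difference was positive for 6 and negative for 7; the medians were 0.18 in THP-1, 0.33 in EA.hy926 and -0.05 for the difference. The shares called in THP-1 and for the difference lie near those over all genes, 30.4% and 28.0%, and 24.6% and 21.9%, while 0.822% of all genes rose in EA.hy926. HMOX1 (chromosome 22, 35381096 to 35394207), which encodes haem oxygenase 1, was the gene that met the rule for a response in EA.hy926 alone. It had 443, 356 and 318 counts in THP-1 LDL against 359, 384 and 427 in THP-1 control libraries, and 2370, 2166 and 2178 in EA.hy926 LDL against 661, 656 and 662 in EA.hy926 control libraries. The THP-1 groups overlapped and the EA.hy926 groups did not. Its changes were -0.08 ± 0.11 and 1.76 ± 0.11 (adjusted p = 0.57 and 1.9e-08), with a difference of -1.84 ± 0.16 (adjusted p = 2.2e-08), and its EA.hy926 rise was called in all 26 alternative settings, at 1.67 to 1.78.

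FTH1 and OSGIN1 rose alike. FTH1, the heavy chain of ferritin, had 7180, 7002 and 7242 counts in THP-1 LDL against 3444, 3348 and 3239 in THP-1 control libraries, and 5664, 5579 and 5619 in EA.hy926 LDL against 2921, 3367 and 2989 in EA.hy926 control libraries. The changes were 1.09 ± 0.08 and 0.86 ± 0.08, and the difference of 0.23 had an SE of 0.11 (adjusted p = 0.10). OSGIN1, an oxidative stress gene, changed by 0.96 ± 0.14 and 0.95 ± 0.14, at 50.9, 65.7 and 55.4 counts in THP-1 LDL against 26.1, 31.4 and 29.1 in control, and 1110, 1033 and 852 in EA.hy926 LDL against 463, 539 and 537 in control libraries. The light chain gene FTL went in opposite directions, with changes of -0.69 ± 0.10 for THP-1 and 0.53 ± 0.10 for EA.hy926 (adjusted p = 8.7e-06 and 0.0095). NQO1, a quinone reductase, fell by 1.02 ± 0.10 in THP-1 and rose by 0.50 ± 0.10 in EA.hy926, with 227, 202 and 181 counts in THP-1 LDL against 427, 414 and 393 in control, and 6420, 6192 and 6586 in EA.hy926 LDL against 4972, 4749 and 3922 in control libraries. The EA.hy926 rise of NQO1 was called in 19 of 26 settings, and not without EA.hy926 LDL replicate 1 or 2 or control replicate 3, and that of FTL in 22. GCLM, a subunit of the enzyme that starts glutathione synthesis, rose in both lines, by 1.51 ± 0.11 and 0.83 ± 0.11.

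Among the other genes that rose alike were GOT1, a transaminase, POR, which feeds electrons to cytochromes P450, and the transcription factor RUNX1, whose changes in THP-1 and then EA.hy926 were 0.40 and 0.56 for GOT1, 0.34 and 0.44 for POR, and 0.25 and 0.49 for RUNX1. The EA.hy926 rise was called in 17 of 26 settings for GOT1, 11 for POR and 20 for RUNX1, and for each it was lost without EA.hy926 LDL replicate 1 or 2. The difference for RUNX1 of -0.25 passed the threshold in 5 alternative settings. The falls were small: MGAT4A, a glycosyltransferase, fell by 0.79 ± 0.13 and 0.64 ± 0.13, with 230, 251 and 219 counts in THP-1 LDL against 424, 388 and 401 in control, and 168, 254 and 226 in EA.hy926 LDL against 346, 325 and 328 in control libraries. The EA.hy926 fall of MGAT4A was called in 20 of 26 settings. Other falls were MYO5A, MTDH, LYST and GATD1-DT, called in EA.hy926 in 15, 7, 13 and 17 of 26 settings, and MTDH not with TMM or median-of-ratios scaling.

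Histone genes made up 25 of the 51 opposite genes. Replication-dependent histone genes supply histones to new DNA in S phase, and their mRNAs end in a stem-loop in place of a poly(A) tail. Of 52 tested, a set chosen by symbol after values were seen, 46 fell and 4 rose in THP-1, 25 rose and 0 fell in EA.hy926, and all 25 fell in THP-1, so they made up 25 of the 40 genes of that class. Among all genes 28.0% fell and 30.4% rose in THP-1, and 0.822% rose and 0.339% fell in EA.hy926. Over the 25 histone genes the change ran from -3.08 to -0.65 in THP-1 and from 0.38 to 0.81 in EA.hy926. H2AC13 (chromosome 6, 27808173 to 27808667, plus strand) had 104, 64.4 and 58.3 counts in THP-1 LDL against 577, 574 and 743 in THP-1 control libraries, and 1434, 1113 and 1117 in EA.hy926 LDL against 716, 744 and 674 in EA.hy926 control libraries. LDL and control libraries did not overlap within either line, as the rule for naming genes of this class required. The difference was -3.85 ± 0.24 (adjusted p = 3.3e-10).

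H3C2 had 355, 300 and 289 counts in THP-1 LDL against 2445, 2473 and 2722 in control, and 3337, 2978 and 2976 in EA.hy926 LDL against 2215, 2106 and 1807 in control libraries. It fell by 3.02 ± 0.10 and rose by 0.60 ± 0.10, and was called in EA.hy926 in all 26 settings. H2BC14, H3C7, H3C8 and H2AC16 had differences of -3.01 ± 0.17, -3.44 ± 0.19, -2.83 ± 0.19 and -2.25 ± 0.19. The count of opposite histone genes was 11 and 13 without EA.hy926 LDL replicate 1 and 2, and 16 and 14 without EA.hy926 control replicate 2 and 3. Many histone genes are near-identical copies, and reads shared between them may be misassigned.

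Of the other S and M phase genes, all 37 tested fell in THP-1 (median -1.59), 2 rose in EA.hy926 (median 0.05), and the difference was negative for 36. Among all genes 28.0% fell in THP-1, 0.822% rose in EA.hy926 and 21.9% of differences were negative. CDC20, an activator of the mitotic ubiquitin ligase, and RRM2, a subunit of ribonucleotide reductase, were the 2 that rose in EA.hy926. CDC20 had 490, 464 and 510 counts in THP-1 LDL against 1856, 1860 and 1996 in THP-1 control libraries, and 555, 512 and 516 in EA.hy926 LDL against 359, 438 and 388 in EA.hy926 control libraries. Its EA.hy926 rise of 0.42 ± 0.09 was called in 15 of 26 settings, and that of RRM2 in 16. MKI67, a proliferation marker, fell by 2.38 ± 0.14 in THP-1 and was at -0.04 ± 0.14 in EA.hy926, with an interval of -0.34 to 0.26.

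**Figure D3:**
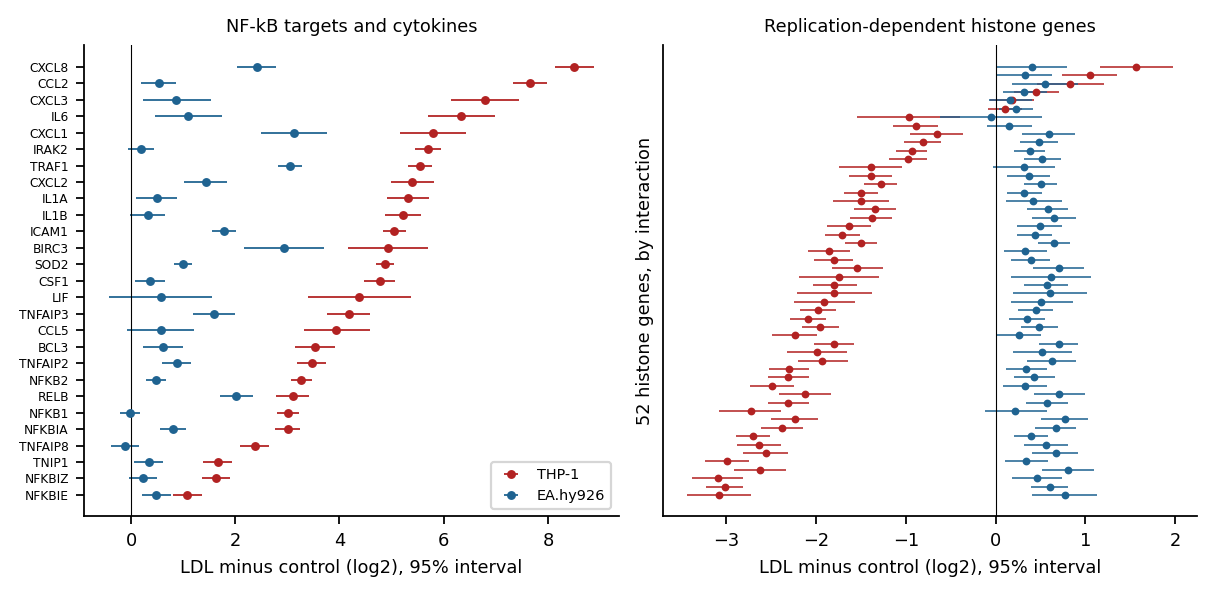
Change with LDL (log2, points) and its 95% interval (bars) in THP-1 (red) and EA.hy926 (blue) for the 27 NF-kB targets, ordered by the THP-1 change, and the 52 histone genes, ordered by the difference. NF-kB targets lie right of 0 in THP-1 and spread from -0.12 to 3.13 in EA.hy926, while 46 histone genes fell in THP-1 and 25 rose in EA.hy926.

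Among the 11 genes that rose in THP-1 and fell in EA.hy926, TXNIP, which binds thioredoxin and restrains glucose uptake, had 14890, 16100 and 13530 counts in THP-1 LDL against 8928, 8863 and 8828 in control, and 1743, 1616 and 1606 in EA.hy926 LDL against 2248, 2737 and 2365 in control libraries. Its changes were 0.74 ± 0.09 and -0.56 ± 0.09, and its difference 1.30 ± 0.13 (adjusted p = 1.9e-07). ST3GAL5, which makes the ganglioside GM3, changed by 0.37 ± 0.08 and -0.69 ± 0.08 and was called in EA.hy926 in all 26 settings. HSF4, a heat shock factor, changed by 0.76 ± 0.21 and -1.04 ± 0.21. RARS2 and UBA3 had differences of 0.94 ± 0.15 and 1.17 ± 0.15. The EA.hy926 fall was called in 25 of 26 settings for TXNIP, 23 for HSF4, 20 for RARS2 and 7 for UBA3, so UBA3 left the class in most of them, at EA.hy926 changes of -0.47 to -0.38. HSF4 was not called there without EA.hy926 control replicate 3, nor RARS2 without that library or EA.hy926 LDL replicate 1 or 2.

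In 2 genes the EA.hy926 change was the larger in the same direction. C3, the central complement component, had 2242, 2098 and 2206 counts in THP-1 LDL against 1272, 1313 and 1484 in THP-1 control libraries, and 15.9, 22.9 and 31.4 in EA.hy926 LDL against 0, 1.10 and 1.16 in EA.hy926 control libraries. The EA.hy926 control libraries held 2 reads in all and the LDL libraries 52, a ratio of 33 with a 95% counting interval of 8.68 to 279 that covers counting error only. MT-RNR1, the small ribosomal RNA of mitochondria, had 12.7, 38.1 and 20.4 counts in THP-1 LDL against 54.0, 36.6 and 95.9 in control, and 138, 82.1 and 39.2 in EA.hy926 LDL against 619, 1570 and 692 in control libraries. It fell by 1.37 ± 0.44 and 3.50 ± 0.44, and the THP-1 groups overlapped. The large ribosomal RNA MT-RNR2 fell by 2.95 ± 0.42 in EA.hy926 and was at -0.19 ± 0.42 in THP-1.

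Of the mitochondrially encoded mRNAs, all 13 fell in THP-1 (median -1.75) and 0 were called in EA.hy926, where the median was 0.36 and changes ran from -0.03 to 1.08; the difference was negative for all 13. MT-ND4, a subunit of complex I, had 126, 137 and 160 counts in THP-1 LDL against 827, 712 and 681 in THP-1 control libraries, and 234, 411 and 166 in EA.hy926 LDL against 168, 215 and 158 in EA.hy926 control libraries. EA.hy926 LDL replicate 2 was the highest of its group, and the EA.hy926 groups overlapped. Nuclear genes of oxidative phosphorylation fell in THP-1 for 24 of 33 and rose for 1. In EA.hy926 0 were called, and the difference was negative for 23. Over all genes 28.0% fell and 30.4% rose in THP-1, and 21.9% of differences were negative. As 0.822% of all genes rose and 0.339% fell in EA.hy926, 0 calls there is not read as particular to any list of this paragraph. Cytosolic ribosomal proteins fell in THP-1 for 48 of 51 and rose for 1, with 0 called in EA.hy926 and a negative difference for 46; RPS23 had 742, 656 and 624 counts in THP-1 LDL against 2157, 2023 and 1828 in control, and 3165, 3316 and 3986 in EA.hy926 LDL against 3602, 3289 and 2839 in control libraries.

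The title of the series names cell mechanics, and genes of the cytoskeleton differed in part. Of 61 tested actin and actomyosin genes 34 fell and 11 rose in THP-1, against 28.0% and 30.4% of all genes. In EA.hy926 0 were called, where 0.822% of all genes rose and 0.339% fell, so nothing is read from that 0. The difference was negative for 28 and positive for 9, against 21.9% and 24.6% over all genes. With quantile normalization the difference was negative for 40 and positive for 4. ACTB, cytoplasmic actin, had 51310, 49660 and 50670 counts in THP-1 LDL against 66890, 73080 and 73820 in control, and 50360, 43610 and 40360 in EA.hy926 LDL against 32080, 38940 and 36410 in control libraries. It fell by 0.49 ± 0.13 in THP-1, its EA.hy926 change of 0.32 ± 0.13 did not pass (adjusted p = 0.25), and the difference was -0.82 ± 0.18 (adjusted p = 0.0011). VIM, the intermediate filament vimentin, rose by 0.88 ± 0.12 in THP-1 and was at 0.04 ± 0.12 in EA.hy926; its difference of 0.85 ± 0.18 was lost with quantile normalization. VCL, which links integrins to actin, fell by 2.29 ± 0.10 in THP-1 and was at -0.31 ± 0.10 in EA.hy926 (adjusted p = 0.16). CCN2, a target of YAP, had 97.1, 112 and 102 counts in THP-1 LDL against 23.5, 16.3 and 23.5 in control, and 5220, 4784 and 4354 in EA.hy926 LDL against 3422, 4562 and 4397 in control libraries, with a difference of 2.04 ± 0.20.

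**Figure D4:**
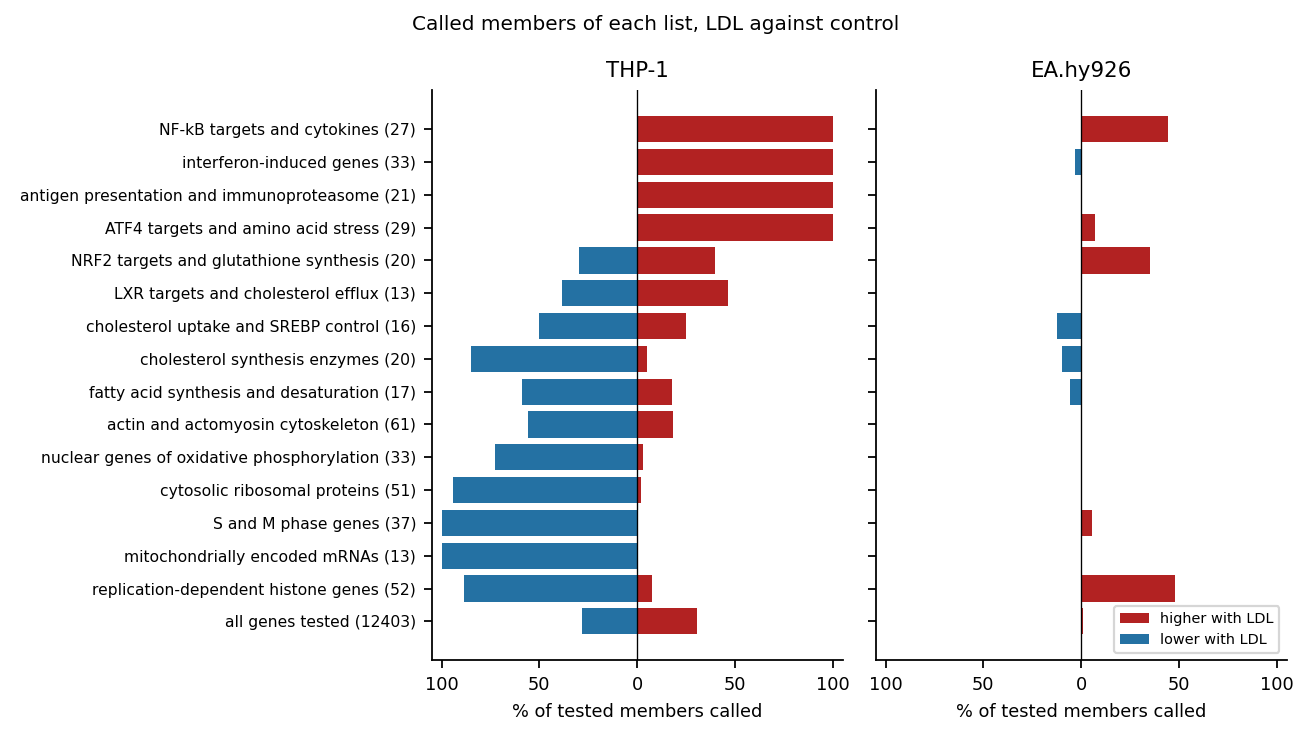
Share of the tested members of each gene list called higher (right of 0, red) or lower (left of 0, blue) with LDL, in percent, in THP-1 and EA.hy926; the number of tested members stands in parentheses. The interferon, NF-kB, antigen presentation and ATF4 lists have every member higher in THP-1, and the NF-kB, NRF2 and histone lists hold most of the listed genes called in EA.hy926.

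Among the largest differences of well expressed genes, P3H2, a collagen prolyl hydroxylase, had 3600, 3690 and 3171 counts in THP-1 LDL against 22.6, 19.0 and 30.1 in THP-1 control libraries, and 184, 180 and 195 in EA.hy926 LDL against 162, 167 and 168 in EA.hy926 control libraries. THP-1 stood above EA.hy926 with LDL and below it with control medium, and the difference was 6.99 ± 0.20 (adjusted p = 1.4e-14). Among negative differences NRGN, a neuronal calmodulin-binding protein, had 146, 109 and 117 counts in THP-1 LDL against 2402, 2383 and 2407 in control, and 84.8, 78.3 and 88.5 in EA.hy926 LDL against 94.9, 82.3 and 61.5 in control libraries, a difference of -4.37 ± 0.21. DYSF, a membrane repair protein, and MMRN2, an endothelial matrix glycoprotein, had differences of -3.98 ± 0.18 and -4.51 ± 0.26. Over the 5756 called genes, the gap between the lines was wider with LDL in 46.8%, narrower in 26.5% and of changed sign in 26.6%, and its median size was 1.25 log2 units with LDL and 0.97 with control medium. Over all 12403 genes the median gap was 0.99 with LDL and 0.87 with control medium.

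The genes called in EA.hy926 also differed in length. Exons covered a median of 3.2 kb in the rises and 6.34 kb in the falls, against 4.89 kb over all tested genes with a length, and without histone genes the rises had 3.68 kb. The 40 opposite genes that fell in THP-1 and rose in EA.hy926, which include the 25 histone genes, had a median of 1.36 kb. Across 12119 genes the Spearman rho of the change with exon length was -0.30 in EA.hy926 and 0.03 in THP-1, and that of the difference was 0.11. Within the EA.hy926 groups the deviation of a library from its group mean also followed length, with rho from -0.22 in LDL replicate 1 to 0.14 in LDL replicate 3. Within the THP-1 groups rho ran from -0.14 in LDL replicate 1 to 0.06 in LDL replicate 3. The part of length in the EA.hy926 calls was not tested.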

How the data were processed

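RNA-seq was made from 12 libraries in 4 groups of 3. The deposited table holds normalised gene counts, a signal in which the authors had divided the reads of each gene by a size factor of the library; the submitters' processing notes name STAR, HTSeq, DESeq2 and GRCh38, with no versions. Dividing each column by its smallest step gave whole reads for 100% of values within a tolerance of 0.001.

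Values were tested as log2(value + 1), so changes of low genes are understated. limma 3.58.1 in R 4.3.3, with an intensity trend, was fitted to all 12 libraries in 4 groups, with contrasts for each line and for the THP-1 change minus the EA.hy926 change, two-sided, with Benjamini-Hochberg adjustment over the 12403 genes and a threshold of 0.05. Every p-value in the text is from this fit unless another tool is named. The fit was tested on simulated data. edgeR 4.0.16 and DESeq2 1.42.0 on the recovered reads were alternatives.

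The members and lists were chosen with earlier results of these data known. Named genes were the 5 largest of each class and of each sign of the difference with a mean of at least 50 and no overlap of libraries, a panel of 14, and up to 4 per list. The histone set, the genes called in EA.hy926, and the other genes of a list given beside these were chosen after their values were seen. Lists overlap. Some genes that these rules meet are not reported here. Gene names came from a list of names matched by gene ID, with no match for 13 IDs. Coordinates and promoters came from RefSeq (GRCh38.p14), matched by symbol, which found 275 of 285 genes looked up for coordinates. Exon lengths came from a GENCODE annotation. The labels state neither selection for poly(A) tails nor whether counting used strand, so overlapping antisense genes cannot be told apart.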

Additional observations from a re-analysis of the deposited data

Results flagged for a closer look

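The LDL response differed between the lines, by the test of the difference itself, for 5756 of 12403 genes. Single genes were picked out where their own difference between the lines, in log2 units as THP-1 minus EA.hy926, passed that test (limma with Benjamini-Hochberg adjustment), among the largest differences and in the classes of opposite changes, of a response in EA.hy926 alone and of a larger change there.

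Among the largest positive differences were CD274 at 8.67, CCL2 at 7.12, P3H2 at 6.99, IFI27 at 6.80 and HLA-DRA at 6.69. The largest negative ones included MMRN2 at -4.51, NRGN at -4.37, RFLNB at -4.19, BIN1 at -4.05 and DYSF at -3.98. Each of these 10 genes was called in THP-1 and not in EA.hy926.

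Genes that rose in THP-1 and fell in EA.hy926 included PNPT1 at 3.73, HSF4 at 1.80, TXNIP at 1.30, UBA3 at 1.17 and RARS2 at 0.94. The EA.hy926 fall was called in 7 of 26 alternative settings for UBA3, 17 for PNPT1, 20 for RARS2, 23 for HSF4 and 25 for TXNIP. Histone genes that fell in THP-1 and rose in EA.hy926 included H2AC13 at -3.85, H3C7 at -3.44, H2BC14 at -3.01, H3C8 at -2.83 and H2AC16 at -2.25. HMOX1, which rose in EA.hy926 alone, stood at -1.84. MT-RNR1, which fell more in EA.hy926, stood at 2.13, and C3, which rose more there, at -3.14, a fitted value that depends on the added 1 since the EA.hy926 control libraries held 2 reads.

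Signals also appeared in genes left out of the comparison because THP-1 control libraries were listed at 0, and these were not tested. LIFR, a cytokine receptor, averaged 59.9 normalised counts in THP-1 LDL libraries (50.9, 61.8 and 67.1), and ANKRD1, a muscle-associated YAP target, averaged 44.5 (41.6, 39.4 and 52.5). PLCG1-AS1, an antisense gene, averaged 41.9, with 9.25, 69.6 and 46.7 in the 3 libraries.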

How the results depend on the processing

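Of 4765 values of the difference for 171 named genes, each under 1 alternative, 4719 kept their side of the threshold. Another 31 in 8 genes were no longer called, 15 in 6 genes became called, and 0 changed sign where called in either fit. Changes of sign in a difference called in neither fit were not counted. In the alternatives with another fit, between 83.6% and 99.9% of the 5756 differing genes were called again. At a threshold of 0.01 on the same fit 74.1% were kept. Of 764 counts, 673 stayed within 1.5 times. The calls in EA.hy926 and the small classes that need them did not, and the cause was not tested. In what follows, the main counts were 144 genes called in EA.hy926, 13 alike, 11 opposite with a THP-1 rise, 40 opposite with a THP-1 fall, 25 histone genes among these, 43 in 1 direction with different sizes, 1 in EA.hy926 alone and 7 NRF2 genes called in EA.hy926.

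Keeping genes with a group at 0 gave 312 calls in EA.hy926 and 46 opposite genes with a THP-1 rise, and TMM scaling 7 alike. Quantile normalization gave 95 calls, 5 alike, 3 and 24 opposite, 15 histone and 4 NRF2 genes. Without the intensity trend there were 68 calls, 5 alike, 5 and 11 opposite, 7 histone and 4 NRF2 genes and 2 in EA.hy926 alone. Library weights gave 885 calls, 90 alike, 150 and 146 opposite, 132 in 1 direction, 12 NRF2 genes and 5 in EA.hy926 alone. With each line fitted alone there were 46 calls, 3 alike, 2 and 14 opposite, 13 histone genes, 24 in 1 direction and 4 NRF2 genes. DESeq2 gave 257 calls, 24 and 63 opposite, 69 in 1 direction and 2 in EA.hy926 alone, and edgeR 154 calls. At a threshold of 0.01 there were 51 calls, 2 alike, 2 and 12 opposite, 9 histone genes and 22 in 1 direction. With an interval limit of 2-fold, 2170 genes met the rule for THP-1 alone, against 1386, with 21 alike and 24 in 1 direction.

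The labels do not say whether replicate numbers pair the libraries. Deviations of LDL and control libraries with the same number correlated at -0.11, -0.07 and 0.06 in THP-1 and -0.36, 0.02 and -0.33 in EA.hy926. With different numbers the correlations ran from -0.07 to 0.14 in THP-1 and from -0.14 to 0.42 in EA.hy926. Deviations from a mean of 3 libraries are tied to each other, so these values cannot decide whether cultures were paired. With a replicate block there were 5021 differing genes, 40 calls in EA.hy926, 2 alike, 1 and 8 opposite, 8 histone genes, 23 in 1 direction and 4 NRF2 genes.

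Leaving out 1 library at a time gave 5056 to 5735 differing genes, 70 to 411 calls in EA.hy926, 1152 to 1442 for THP-1 alone, 1 to 3 for EA.hy926 alone, 4 to 45 alike, 2 to 71 and 16 to 68 opposite, 11 to 27 histone genes, 26 to 79 in 1 direction and 5 to 7 NRF2 genes. Without EA.hy926 control replicate 1 and LDL replicate 3, chosen after seeing the data, there were 241 calls, 3 in EA.hy926 alone, 20 alike and 38 opposite genes with a THP-1 rise. In EA.hy926 1808 genes had an unadjusted p below 0.05. Depth limits low genes, as for C3.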

Other observations

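Counts for lists not described above stand beside those of all genes tested, of which 30.4% rose and 28.0% fell in THP-1 and 24.6% and 21.9% had a positive and a negative difference; several lie near these shares, and none is read as particular to its list. Of 20 cytosolic tRNA synthetases 11 rose and 3 fell in THP-1, 0 were called in EA.hy926, and the difference was positive for 11 and negative for 3. Of 29 glycolysis and hypoxia genes 16 rose and 7 fell in THP-1 and 0 were called in EA.hy926, with a positive difference for 14 and a negative one for 7. Of 26 lysosomal genes 14 rose and 4 fell in THP-1 and 1 rose in EA.hy926, with a positive difference for 12 and a negative one for 4. Autophagy genes rose in THP-1 for 17 of 27 and fell for 2, 1 rose in EA.hy926, and the difference was positive for 15 and negative for 2. Among 21 heat shock genes 10 fell and 4 rose in THP-1 and 0 were called in EA.hy926, with a negative difference for 10 and a positive one for 4. Intermediate filament, lamin and tubulin genes fell in THP-1 for 13 of 21 and rose for 3, and 1 rose in EA.hy926, with a negative difference for 12 and a positive one for 1.

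Among genes at 0 in 1 group, PRDX2, a peroxiredoxin, had 87.9, 68.3 and 72.9 normalised counts in THP-1 LDL against 237, 248 and 243 in THP-1 control libraries, and 31.8, 17.2 and 11.2 in EA.hy926 LDL libraries, with EA.hy926 control listed at 0. The complement component C2 had 674, 685 and 544 in THP-1 LDL against 204, 219 and 223 in THP-1 control libraries, and was listed at 0 in EA.hy926 LDL against 3.06, 29.6 and 23.2 in EA.hy926 control libraries. These genes were not tested.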
